A study of Rattus norvegicus with 9 samples.

Results

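The interleukin-1 (IL-1) family genes described here are 10 of the 32883 genes in the deposited rat liver tables, chosen by symbol. The agonist ligands are Il1a, Il1b, Il18 and Il33. The antagonist and decoys are Il1rn, Il1r2 and Il18bp. The receptor Il1r1, the shared co-receptor Il1rap and the IL-33 receptor Il1rl1 complete the list. All 10 passed the filter on low counts. RNA was sequenced from 9 livers of male Sprague-Dawley rats of 8 to 11 weeks, with 3 rats in each of 3 groups. Normal livers came from rats with neither operation nor injection named in the labels. The rats of the empty and UTOpiA groups both had acute-on-chronic liver failure (ACLF), induced by bile duct ligation for 21 days and then lipopolysaccharide (LPS) at 0.25 mg/kg, and both were connected to an extracorporeal circuit for 2 h, starting 1 h after LPS. The circuit of the empty group held neither cells nor beads, whereas that of the UTOpiA group held capsules of HLA-depleted human hepatocyte-like organoids and cellulose acetate beads that adsorb granulocytes and monocytes. At 24 h after LPS the livers of both ACLF groups were collected. Each ACLF group therefore carries ligation, endotoxin, anaesthesia and circulation together, and the effects of these cannot be told apart in the comparisons with normal liver, nor can those of the organoids and the beads in the comparison of the UTOpiA group with the empty group.

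IL-1 alpha and IL-1 beta bind the same receptor, IL-1R1, which signals only once it has recruited the accessory chain encoded by Il1rap. The receptor antagonist encoded by Il1rn occupies IL-1R1 without recruiting that chain, the decoy receptor encoded by Il1r2 binds the agonists but has no signalling domain, and the binding protein encoded by Il18bp holds IL-18 in solution. IL-33 is an alarmin stored in the nucleus, and its receptor ST2, the product of Il1rl1, also pairs with the Il1rap chain. In liver, IL-1 beta comes mainly from macrophages and neutrophils, while hepatocytes add the secreted receptor antagonist during the acute-phase response.

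Il1a, Il1b and Il1rn encode the agonists and the antagonist of 1 receptor and all lie on rat chromosome 3, yet Il1a was not called higher in ACLF while the other two were. The 250 bases before their RefSeq start sites are shown, read from the rat assembly GRCr8, 5′ to 3′ on the strand of the gene, with motif matches in capitals. They span chr3:136990018-136990267 on the minus strand for Il1a, chr3:137036582-137036831 on the minus strand for Il1b and chr3:27520072-27520321 on the plus strand for Il1rn.
Il1a: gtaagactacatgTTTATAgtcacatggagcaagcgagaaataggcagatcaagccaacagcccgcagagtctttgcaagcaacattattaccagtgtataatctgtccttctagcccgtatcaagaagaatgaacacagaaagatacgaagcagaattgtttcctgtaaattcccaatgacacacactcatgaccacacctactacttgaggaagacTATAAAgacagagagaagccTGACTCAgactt
Il1b: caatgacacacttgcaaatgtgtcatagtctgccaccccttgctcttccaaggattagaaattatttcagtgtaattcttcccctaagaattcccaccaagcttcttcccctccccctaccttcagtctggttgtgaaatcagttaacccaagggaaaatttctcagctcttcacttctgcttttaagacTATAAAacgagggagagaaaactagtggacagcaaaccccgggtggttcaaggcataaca
Il1rn: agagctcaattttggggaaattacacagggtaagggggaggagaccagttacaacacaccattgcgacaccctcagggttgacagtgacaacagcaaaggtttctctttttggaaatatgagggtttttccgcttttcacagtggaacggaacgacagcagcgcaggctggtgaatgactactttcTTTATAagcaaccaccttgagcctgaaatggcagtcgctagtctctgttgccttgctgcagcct
The motifs searched on both strands were the TATA box, spelled TATAAA, and those of AP-1 (TGANTCA), C/EBP (TTGCNNAA), STAT (TTCNNNGAA) and the kappa B consensus, of which no pair overlapped in the 3 promoters shown. Counted back from the start site, Il1a held AP-1 letters at positions -12 to -6 and TATA letters at -32 to -27, besides another TATA match on the opposite strand. Il1b held TATA letters at positions -60 to -55, and Il1rn held them on the opposite strand. Of the 33469 rat promoters of this length, 12.9% held the TATA letters, 6.34% AP-1, 9.22% C/EBP, 7.67% STAT and 3.54% the kappa B consensus. Promoters were found for 9 of the 10 genes. TATA letters occurred in 5 of the 9, the kappa B consensus in Il1r1 and Il1rap, C/EBP letters in Il33 and STAT letters in 0. These are matches of letters only, and no binding was measured.

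Between 14241172 and 17321677 reads were counted per library. The hepatocyte markers listed for this work were detected in every library, 10 of 10, so the tissue label fitted. However, they summed to 149900 to 162800 TPM in normal livers, 32830 to 58830 in the empty group and 37900 to 59360 in the UTOpiA group. Against normal livers, 6 and 3 of the 10 were called lower in these groups and 1 higher in each. Of all genes tested, 11.1% and 6.81% were called lower and 20.7% and 18.2% higher. Empty replicate 2 stood apart from the other libraries of its group, with a chi-square per degree of freedom of 175 and 227 against them, compared with 46.7 between the other two. Levels of genes are given in TPM, a transcript abundance scaled by gene length and library size. Differences are log2 fold changes from the edgeR quasi-likelihood test on the counts, with Benjamini-Hochberg adjustment over the 14089 genes tested, and differentially expressed genes (DEGs) were those past an adjusted p of 0.05 that also changed more than 2-fold. Scaling matters here, since the median log2 fold change of all genes in the empty group against normal livers was 0.045 on the scale of the counts and 0.441 with limma on log2(TPM + 1), and that of the UTOpiA group against normal livers 0.053 and 0.286. The DEGs of the empty group numbered 2916 higher and 1560 lower with edgeR, against 3270 and 693 with limma on log2(TPM + 1), and those of the UTOpiA group against normal livers 2563 and 959, against 2210 and 486. All 3 comparisons share libraries: the first pair share the normal livers, and each ACLF group enters 2 comparisons.

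In normal liver, Il33 had the highest level of the family, at 77.4 ± 5.04 TPM (SD, n = 3), followed by Il1rap (27.0), Il1r1 (20.3), Il18bp (16.8), Il1a (11.1), Il1rn (11.01), Il18 (8.14), Il1b (2.02), Il1r2 (0.145) and Il1rl1 (0.0784 TPM). The ranges of neighbours in this order overlapped for Il1a and Il1rn, for Il1rn and Il18, and for Il1r2 and Il1rl1, and did not for the others. The order changed in ACLF. In the empty group Il1rn was first at 207 ± 49.2 TPM and its range lay above that of the next gene, Il18bp, at 122.9 ± 17.7 TPM. From Il18bp through Il1r1 and Il1b to Il33, and from Il18 to Il1rap, each range overlapped the next. In the UTOpiA group the 4 leading genes, Il1r1 (101), Il33 (70.3), Il18bp (66.9) and Il1rn (64.6 TPM), overlapped from one to the next, and Il1rn lay above Il1b at 21.5 TPM. Il1rl1 had the lowest mean level in all 3 groups, although in normal replicates 2 and 3 Il1r2 was at 0 and thus below it.

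**Figure D1:**
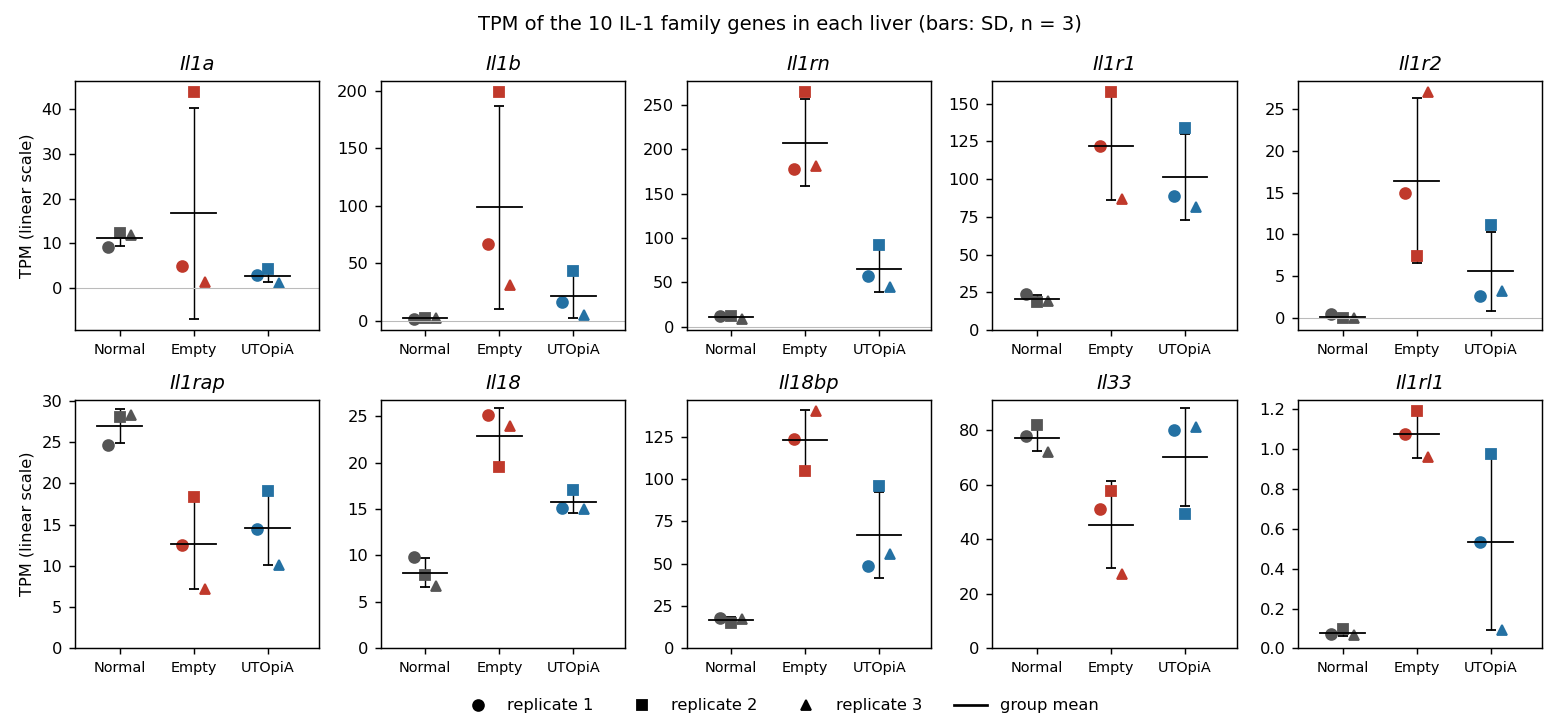
TPM (linear y axis) of each of the 10 genes in the normal, empty and UTOpiA livers; each point is a liver, its shape the replicate number, horizontal lines are group means and vertical bars the SD (n = 3). Il1rn lies between 9.22 and 12.05 TPM in normal livers, 177 and 264 with the empty circuit and 44.4 and 92.7 in the UTOpiA group, while Il33 and Il1rap are below every normal liver with the empty circuit.

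Against normal livers, 8 of the 10 genes were DEGs in the empty group, 6 higher (Il1b, Il1rn, Il1r1, Il1r2, Il18bp and Il1rl1) and 2 lower (Il1rap and Il33), whereas 20.7% of all genes tested were called higher and 11.1% lower. Il1r2 and Il1rl1, with at most 5 counts in any normal library, passed the filter through the ACLF libraries, which fixed their direction. In the UTOpiA group against normal livers, 7 were DEGs, with Il1b, Il1rn, Il1r1, Il1r2, Il18bp and Il1rl1 higher and Il1rap lower, where 18.2% of all genes were called higher and 6.81% lower. The direct comparison of the UTOpiA group with the empty group gave 0 DEGs among the 10 genes with edgeR, as it did for all genes (0%). At an unadjusted p under 0.05 that comparison held 5 of the 10 (Il1a, Il1b, Il1rn and Il18bp lower, Il33 higher), against 4.56% of all genes lower and 5.77% higher, and DESeq2 called 1, Il1rn, with 0.504% of all genes called lower and 0.376% higher. Over the 10 genes the median of the log2 fold changes was 2.21, 1.81 and -0.81 in the 3 comparisons, beside 0.0447, 0.0533 and 0.00121 over all genes tested. Counted by TPM instead, 7 of the 10 were above normal livers without overlap with the empty circuit and 2 below, where 53.4% and 12.8% of all genes were, and 6 and 2 in the UTOpiA group, where 39.0% and 13.4% were. With Il1rl1 set at the bound that 3 counts per normal library allow, the median of the UTOpiA group against normal livers became 1.79.

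**Figure D2:**
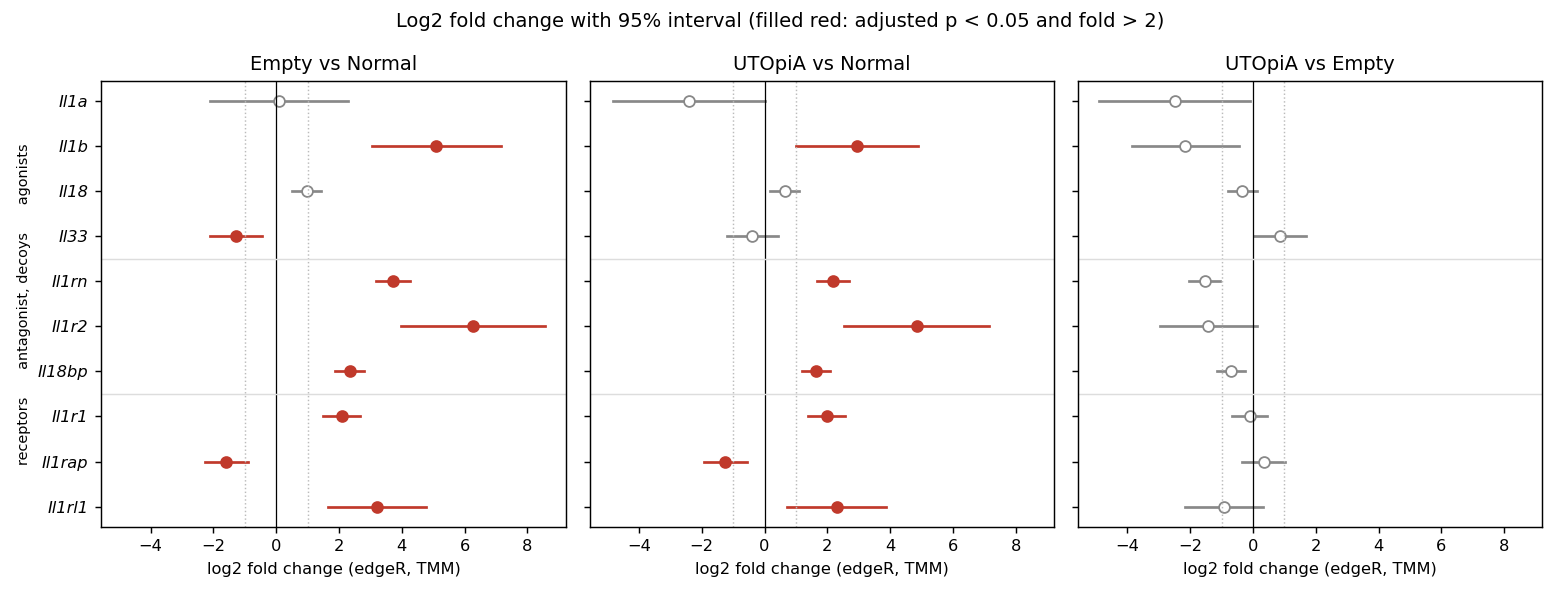
Log2 fold change (x axis, edgeR with TMM normalisation) of the 10 genes (y axis) with 95% intervals in the 3 comparisons; filled red points are DEGs, open grey points are not, and dotted lines mark a fold change of 2. The antagonist and decoys Il1rn, Il1r2 and Il18bp are DEGs above 0 in both comparisons with normal livers, and no gene is a DEG between the UTOpiA and empty groups.

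Positions of the genes from here on are those of the deposited tables, credited to the build rn6, and differ from those of the GRCr8 promoters. Il1a, on chromosome 3 at 121825412 to 121836086 (minus strand), encodes IL-1 alpha, which is active without cleavage and is released from damaged cells. Its level was 9.23, 12.3 and 11.9 TPM in normal livers, 4.89, 43.8 and 1.34 in empty replicates 1 to 3, and 2.81, 4.18 and 1.19 in the UTOpiA group. All 3 UTOpiA livers lay below all normal livers, and in the empty group 2 livers lay below and replicate 2 above the normal range. The log2 fold change of the empty group against normal livers was 0.08 ± 0.97 (SE, edgeR adjusted p = 0.951), and its direction depended on scaling and on that liver: it was -0.50 with limma on log2(TPM + 1), and without empty replicate 2 Il1a fell by 2.32 (adjusted p = 0.00901). The UTOpiA group differed from normal livers by -2.41 ± 1.06 (adjusted p = 0.103). That difference was a DEG in 4 of 19 alternatives, namely DESeq2 (-2.43, adjusted p = 0.0189), edgeR with only the 6 libraries compared (-2.40, adjusted p = 0.00138) and edgeR without empty replicate 2 (adjusted p = 0.00452) or empty replicate 3 (adjusted p = 0.0313), over a range of adjusted p from 0.00138 to 0.220. From the empty group it differed by -2.49 (95% interval -4.90 to -0.09, edgeR adjusted p = 0.469), or -0.10 without empty replicate 2.

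Il1b lies beside Il1a at 121876263 to 121882726 (minus strand) and encodes the precursor of IL-1 beta, which caspase-1 cleaves to its active form. Its level was 1.79, 2.27 and 2.00 TPM in normal livers, 66.3, 198 and 31.2 with the empty circuit, and 16.6, 43.1 and 4.90 in the UTOpiA group. Every ACLF liver was above every normal liver, and the UTOpiA and empty groups overlapped, since UTOpiA replicate 2 was above empty replicate 3. The log2 fold change was 5.11 ± 0.90 (edgeR adjusted p = 0.00211) with the empty circuit and 2.95 ± 0.86 (adjusted p = 0.0249) in the UTOpiA group, both against normal livers. Without empty replicate 2 the first was 4.09. The second was a DEG in 14 of 19 alternative analyses, and it missed the threshold without a filter on counts (adjusted p = 0.0721), without normal replicate 1, 2 or 3 (adjusted p = 0.0732, 0.0685 and 0.0708) and without UTOpiA replicate 2 (2.15, adjusted p = 0.106). The UTOpiA group differed from the empty group by -2.16 (95% interval -3.87 to -0.45, edgeR adjusted p = 0.408), or -1.14 without empty replicate 2 and -2.96 without UTOpiA replicate 2.

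Il1a exceeded Il1b in every normal liver and Il1b exceeded Il1a in every ACLF liver. Il1b made up 14.4 to 16.2% of the summed TPM of Il1a and Il1b in normal livers, 81.9 to 95.9% with the empty circuit and 80.4 to 91.2% in the UTOpiA group. The 6 ACLF livers were all above the 3 normal livers, and the ACLF groups overlapped each other.

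Il1rn, the receptor antagonist gene (chromosome 3, 1452644 to 1468614, plus strand), rose in ACLF with little spread. Its level was 11.8, 12.05 and 9.22 TPM in normal livers, 177, 264 and 181 with the empty circuit, and 56.7, 92.7 and 44.4 in the UTOpiA group. The 3 groups did not overlap: the empty group was highest, the UTOpiA group intermediate and the normal livers lowest. Against normal livers the log2 fold change was 3.72 ± 0.24 in the empty group (edgeR adjusted p = 4.09e-05) and 2.19 ± 0.23 in the UTOpiA group (adjusted p = 2.36e-04), with all 19 alternatives calling both. Between the UTOpiA and empty groups it was -1.53 (95% interval -2.03 to -1.04), lower in 3 of 3 livers. Its unadjusted p of 5.10e-05 ranked 2 of the 14089 genes, and the edgeR adjusted p of 0.170 did not pass. DESeq2 called the same difference (-1.55, adjusted p = 2.66e-06), as did edgeR without empty replicate 2 (-1.30, adjusted p = 0.0455) and without UTOpiA replicate 2 (-1.71, adjusted p = 0.0376), where 0.153% and 0.119% of all genes were called lower. Over the 19 alternatives the adjusted p ran from 2.66e-06 to 0.610, and 3 passed. In analyses added after the data were seen, DESeq2 also called Il1rn lower without any 1 of the 6 ACLF libraries. The share of all genes it called lower was 0.708%, 0.986% and 0.504% without empty replicates 1, 2 and 3, and 0.180%, 2.45% and 0.380% without UTOpiA replicates 1, 2 and 3. TPM did not overlap and were lower in the UTOpiA group for 3 of the 10 genes, Il1rn, Il18 and Il18bp, beside 8.62% of all genes tested.

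**Figure D3:**
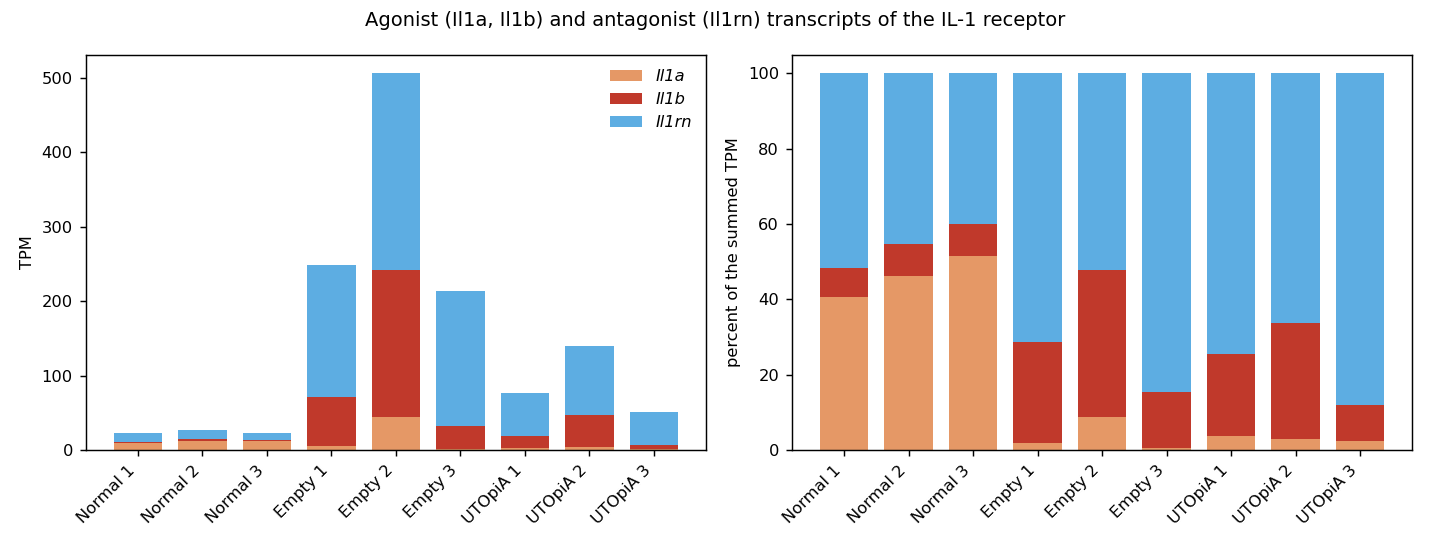
Stacked TPM of Il1a, Il1b and Il1rn in each liver (left, y axis in TPM) and the same as percent of their sum (right). Il1rn makes up 39.9 to 51.6% of the sum in normal livers, 52.2 to 84.7% with the empty circuit and 66.2 to 87.9% in the UTOpiA group, and the summed level is highest in empty replicate 2.

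The receptor genes lie together on chromosome 9. Il1r1, the signalling receptor (46962288 to 47036670, plus strand), was at 23.6, 18.4 and 18.9 TPM in normal livers, 122, 158 and 86.6 with the empty circuit and 89.2, 134 and 81.2 in the UTOpiA group. All ACLF livers were above all normal livers, and the ACLF groups overlapped. The log2 fold change against normal livers was 2.08 ± 0.26 with the empty circuit (edgeR adjusted p = 3.20e-04) and 1.98 ± 0.26 in the UTOpiA group (adjusted p = 5.99e-04). The difference between the ACLF groups was -0.11 (95% interval -0.67 to 0.45, edgeR adjusted p = 0.918), and 0.13 without empty replicate 2, so a change of more than 2-fold in either direction was outside the interval.

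The co-receptor gene Il1rap (chromosome 11, 77463954 to 77593207, minus strand) moved the other way. It was at 24.6, 28.1 and 28.3 TPM in normal livers, 12.5, 18.4 and 7.24 with the empty circuit, and 14.5, 19.1 and 10.1 in the UTOpiA group. Every ACLF liver was below every normal liver. Il1rap fell by 1.59 ± 0.31 on the log2 scale in the empty group (edgeR adjusted p = 0.00273), and it fell by 1.25 ± 0.30 in the UTOpiA group (adjusted p = 0.0110), the latter a DEG in 16 of 19 alternatives. Between the ACLF groups the difference was 0.34 (95% interval -0.34 to 1.02, edgeR adjusted p = 0.732), and it was 0.71 without empty replicate 2 and 0.033 without empty replicate 3. Il1rap is expressed strongly by hepatocytes, whose summed markers were also lower in these livers as given above, and their part in the result was not tested. In bulk tissue, fewer cells of a type and less RNA per cell cannot be told apart.

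Il1r2, the decoy receptor gene (chromosome 9, 46840992 to 46881264, plus strand), was near the limit of detection in normal liver. Its counts there were 5, 0 and 0, against 214, 98 and 366 with the empty circuit and 31, 147 and 42 in the UTOpiA group. In TPM these were 0.434, 0 and 0, then 14.9, 7.39 and 27.1, then 2.56, 11.1 and 3.17. All 6 ACLF livers were above the normal livers, and UTOpiA replicate 2 lay within the range of the empty group. The ratio of summed counts to normal livers, scaled by library size, was 83.1 (95% interval 35.4 to 257) with the empty circuit and 32.7 (13.8 to 102) in the UTOpiA group, intervals that cover counting error only. Both were DEGs (edgeR adjusted p = 0.00129 and 0.00621). The UTOpiA group differed from the empty group by -1.42 on the log2 scale (95% interval -2.96 to 0.13, edgeR adjusted p = 0.516), and by -0.95 without empty replicate 3 and -2.13 without UTOpiA replicate 2. Without the latter library DESeq2 called it (-2.17, adjusted p = 0.0232), beside 2.45% of all genes called lower.

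Il18 (chromosome 8, 54993859 to 55016299, plus strand) encodes IL-18, a caspase-1 substrate that drives interferon gamma production. It was at 9.80, 7.94 and 6.68 TPM in normal livers, 25.1, 19.5 and 23.98 with the empty circuit, and 15.1, 17.0 and 14.98 in the UTOpiA group. The 3 groups did not overlap on this scale. The log2 fold change against normal livers was 0.97 ± 0.21 in the empty group (edgeR adjusted p = 0.00445), a fold change of 1.96 that missed the threshold of 2, and 0.64 ± 0.21 in the UTOpiA group (adjusted p = 0.0368, fold change 1.56). The first was a DEG in 7 of 19 alternatives. Between the ACLF groups the difference was -0.33 (95% interval -0.79 to 0.12, edgeR adjusted p = 0.606). Il18 overlaps Bco2 and Tex12 on the opposite strand, and the strand setting of the counting was not given in the sources used here. Bco2 held 970 to 1161 counts in normal livers, 163 to 419 with the empty circuit and 180 to 304 in the UTOpiA group, lower where Il18 was higher, and Tex12 held 5 to 35 counts over all libraries.

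Il18bp (chromosome 1, 167091522 to 167093560, minus strand), which encodes the IL-18 binding protein, rose in both ACLF groups. Its level was 17.9, 15.1 and 17.4 TPM in normal livers, 123.4, 105 and 140 with the empty circuit, and 48.7, 96.1 and 56.0 in the UTOpiA group. The groups did not overlap, with the UTOpiA group in between. The log2 fold change was 2.34 ± 0.20 (edgeR adjusted p = 7.39e-05) with the empty circuit and 1.65 ± 0.20 (adjusted p = 4.38e-04) in the UTOpiA group. The UTOpiA group differed from the empty group by -0.70 (95% interval -1.13 to -0.27), with an unadjusted p of 0.00496 and an edgeR adjusted p of 0.346.

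Il33 (chromosome 1, 248132090 to 248147029, plus strand) encodes the alarmin IL-33 and was called lower in the empty group. It was at 78.1, 82.1 and 72.1 TPM in normal livers, 51.3, 57.7 and 27.4 with the empty circuit, and 80.1, 49.5 and 81.3 in the UTOpiA group. The empty group lay below all normal livers, whereas 2 UTOpiA livers were within the normal range and UTOpiA replicate 2 was lower. Il33 fell by 1.27 ± 0.37 on the log2 scale in the empty group (edgeR adjusted p = 0.0188), a DEG in 14 of 19 alternatives. It missed the thresholds with limma on TPM at each setting, without normal replicate 2 (adjusted p = 0.0503) and without empty replicate 3 (-0.97). The UTOpiA group differed from normal livers by -0.40 (95% interval -1.21 to 0.42, adjusted p = 0.410) and from the empty group by 0.87 (95% interval 0.05 to 1.69, edgeR adjusted p = 0.462). Without UTOpiA replicate 2, DESeq2 called the last difference (1.13, adjusted p = 0.0237), with 1.59% of all genes called higher and 2.45% lower, in an analysis added after the data were seen.

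Il1rl1, the ST2 gene (chromosome 9, 47134034 to 47182170, plus strand), gives a membrane receptor and a soluble form that binds IL-33 as a decoy, and counts per gene do not tell them apart. It had 2, 3 and 2 counts in normal livers, 38, 39 and 32 with the empty circuit and 16, 32 and 3 in the UTOpiA group. Levels were thus at most 0.0994 TPM in normal livers, 0.959 to 1.19 with the empty circuit and 0.0917 to 0.978 in the UTOpiA group, where replicate 3 lay within the normal range. The ratio of scaled summed counts to normal livers was 9.54 (95% interval 4.48 to 24.3) with the empty circuit and 5.41 (2.44 to 14.1) in the UTOpiA group. Both were DEGs (edgeR adjusted p = 0.00439 and 0.0285), the latter in 9 of the 16 alternatives in which it was tested. It missed the thresholds with limma on log2(TPM + 1) (0.47, adjusted p = 0.113) and on log2(TPM + 0.1) (1.52, adjusted p = 0.0676), without any 1 of the normal libraries (adjusted p = 0.0829, 0.0674 and 0.0867), without UTOpiA replicate 1 (adjusted p = 0.0618) and without UTOpiA replicate 2 (1.69, adjusted p = 0.110).

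The antagonist was set against the agonists it competes with, the decoy receptor against the signalling receptor Il1r1 and the binding protein against Il18, as log2 ratios of TPM + 0.1 in each liver, in 9 two-sided exact permutation tests, for which the smallest possible p with 3 livers against 3 is 0.1. The ratio of Il1rn to the sum of Il1a and Il1b was 0.09, -0.27 and -0.58 in normal livers, 1.32, 0.12 and 2.47 with the empty circuit, and 1.54, 0.97 and 2.85 in the UTOpiA group. The antagonist was at 0.665 to 1.07 times the agonists in normal livers, and it exceeded the agonists in all 6 ACLF livers, in empty replicate 2 only slightly. The mean ratio was higher than in normal livers by 1.56 in the empty group and by 2.04 in the UTOpiA group (exact permutation p = 0.1 for each, adjusted p = 0.15), and the UTOpiA and empty groups overlapped (difference 0.48, exact permutation p = 0.6, adjusted p = 0.6). This direction rested on Il1a. The linear ratio of Il1rn to Il1b alone was 4.62 to 6.57 in normal livers, 1.33 to 5.78 with the empty circuit and 2.15 to 9.07 in the UTOpiA group. On the log2 scale that ratio differed from normal livers by -0.93 (exact permutation p = 0.3) with the empty circuit and -0.38 (exact permutation p = 0.6) in the UTOpiA group, with overlapping groups. Set against Il1a alone, Il1rn ran from 0.777 to 1.27 in normal livers, 6.03 to 135 with the empty circuit and 20.2 to 37.2 in the UTOpiA group.

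**Figure D4:**
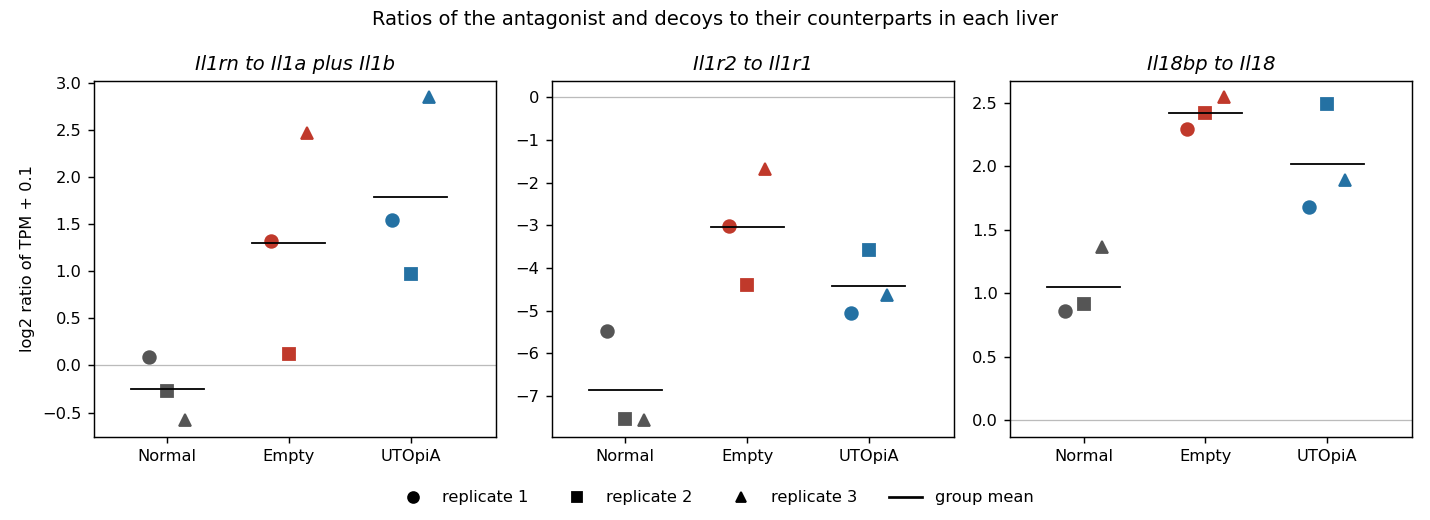
Log2 ratio of TPM + 0.1 (y axis) of Il1rn to Il1a plus Il1b, Il1r2 to Il1r1 and Il18bp to Il18 in the normal, empty and UTOpiA livers; points are livers, shapes replicate numbers and lines group means. All 3 ratios are higher in every ACLF liver than in every normal liver, and the ACLF groups overlap.

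The decoy Il1r2 made up 0 to 1.81% of the summed TPM of Il1r2 and Il1r1 in normal livers, 4.47 to 23.8% with the empty circuit and 2.80 to 7.63% in the UTOpiA group, so the signalling receptor was in excess in every liver. The log2 ratio was higher than in normal livers by 3.83 with the empty circuit and 2.43 in the UTOpiA group (exact permutation p = 0.1, adjusted p = 0.15). These sizes depended on the pseudocount, since 2 normal livers had 0 counts of Il1r2. With 1 TPM added the differences were 1.29 (exact permutation p = 0.2) and 0.083 (exact permutation p = 0.9). The UTOpiA group differed from the empty group by -1.40 (exact permutation p = 0.2, adjusted p = 0.257). Il18bp exceeded Il18 in all livers, 1.83 to 2.602 times in normal livers, 4.92 to 5.85 times with the empty circuit and 3.22 to 5.65 times in the UTOpiA group. Its log2 ratio was higher than in normal livers by 1.37 and 0.97 (exact permutation p = 0.1, adjusted p = 0.15), and differed by -0.40 between the ACLF groups (exact permutation p = 0.3, adjusted p = 0.338). The 9 values share libraries and are not independent.

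The other ligands and receptors of the family were sparse, and 5 of 11 were tested. Il36g, Il36rn, Il1f10, Il1rapl2, Il36a and Il1rapl1 did not pass the filter on low counts. In the empty group 3 of 5 (Il1rl2, Il18r1 and Il18rap) were called higher and 1 lower, beside 20.7% and 11.1% of all genes tested. The median log2 fold change was 2.23, or 2.07 with Il1rl2 at its bound. Il1rl2 had no more than 3 counts in a normal library and at most 8 in a UTOpiA library. It thus passed the filter through the empty livers, which fixed its direction. The count of 4 calls fell to 1 without normal replicate 1 or empty replicate 3 and to 2 without normal replicate 3, and to 0 with limma on log2(TPM + 1). Il18r1, the IL-18 receptor, rose from 0.0586 to 0.297 TPM in normal livers to between 0.836 and 2.34 (2.48, edgeR adjusted p = 0.0132), and its accessory chain Il18rap by 2.23 (adjusted p = 0.0334). Il18rap was at 0.0219 to 0.355 TPM in normal livers, so both were low there. Sigirr, an inhibitory receptor of the family, fell by 1.01 (adjusted p = 0.0133), although in TPM empty replicate 2 overlapped the normal range. In the UTOpiA group 1 of 5, Il18r1, was called higher (edgeR adjusted p = 0.0471), beside 18.2% of all genes. It was not called without normal replicate 1 or 3, empty replicate 1, or UTOpiA replicate 1 or 2.

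Of the 17 adaptors and kinases downstream of the receptor, 2 were DEGs in the empty group, both higher, beside 20.7% of all genes called higher, with a median of 0.115. TPM were above normal livers without overlap for 11 of the 17, beside 53.4% of all genes. Irak2, a kinase that sustains the signal, was at 15.7, 31.8 and 18.0 TPM in the empty group against 4.79 to 5.18 in normal livers (1.61, edgeR adjusted p = 0.00103). Irak3, which restrains it, was at 25.2, 29.4 and 24.9 against 4.14 to 6.87 (1.73, edgeR adjusted p = 1.94e-04). In the UTOpiA group 1 of 17, Irak3, was a DEG (1.44, edgeR adjusted p = 6.50e-04), beside 18.2% of all genes called higher, with a median of -0.0053.

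Of the inflammasome and ligand-processing genes, 17 of 21 were tested, Gsdme, Elane, Prtn3 and Ctsg not passing the filter. In the empty group 7 rose and 0 fell (median 0.775), beside 20.7% and 11.1% of all genes. In the UTOpiA group 5 rose and 1, Panx1, fell (median 0.755), beside 18.2% and 6.81%. Pycard, the ASC adaptor, rose by 2.03 in the empty group (edgeR adjusted p = 0.00234) and 2.15 in the UTOpiA group (adjusted p = 0.00257). Casp1, the caspase that cleaves the precursors of IL-1 beta and IL-18, was at 3.84 to 4.46 TPM in normal livers and 21.5, 27.4 and 7.65 in the UTOpiA group (1.79, edgeR adjusted p = 0.00678), and it also rose with the empty circuit (1.98, adjusted p = 0.00314). Nlrc4 rose in the empty group by 2.24 (adjusted p = 0.00254) and Txnip by 2.57 (adjusted p = 0.00680), and the sensor gene Nlrp3 rose there by 1.99 (adjusted p = 6.86e-04) and in the UTOpiA group by 1.45 (edgeR adjusted p = 0.00442). Mefv, the pyrin gene, was at 0.0329 to 0.0708 TPM in normal livers and between 1.85 and 2.89 in the empty group. It had no more than 3 counts in any normal library and passed the filter through the ACLF libraries, which fixed its direction. Mefv is among the 7 and the 5 that rose.

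The last list held genes known to be induced by IL-1, most of them also by tumour necrosis factor and by LPS itself, which the ACLF rats received. All 15 tested were called higher with the empty circuit and 7 of 15 in the UTOpiA group against normal livers, beside 20.7% and 18.2% of all genes. Of the 15, 5 (Cxcl2, Ccl20, Nos2, Il6 and Ptgs2) had no more than 3 counts in any normal library and so passed the filter through the ACLF libraries, which fixed their direction. Ccl2 and Cxcl1 were also low in normal livers, at 0.141 to 0.599 and 0.877 to 0.945 TPM, and the filter may have favoured a higher call for them too. The count of 7 became 4 without any 1 normal library, UTOpiA replicate 1 or UTOpiA replicate 2, and 11 without empty replicate 2. Their median log2 fold change was 7.62 and 4.17, or 4.72 and 2.21 once these 5 were set at their bounds. Csf3, also at 0 in all normal livers, did not pass the filter. Cxcl2, Ccl20, Nos2 and Il6 had 0 counts in all normal livers. Cxcl2, a neutrophil chemokine, was at 11.7, 268 and 15.4 TPM with the empty circuit, and Il6 at 1.15, 80.3 and 2.14, so empty replicate 2 was far above the others for both. Ccl20 was at 27.2, 110 and 32.0 TPM with the empty circuit and 7.86, 16.2 and 5.51 in the UTOpiA group.

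In the UTOpiA group against the empty group, 14 of the 15 had negative fold changes, with a median of -2.39, and 13 had an unadjusted p under 0.05, beside 10.3% of all genes, but 0 were DEGs with edgeR. TPM were lower in the UTOpiA group without overlap for 10 of the 15, and 11 without empty replicate 2, beside 8.62% of all genes with every library. Nos2 and Il6 had at most 6 and 7 counts in a UTOpiA library. They thus passed the filter through the empty livers, which fixed their direction here, and both are among the 14, the 13 and the 10. DESeq2 called 6 of the 15 lower, Nos2 among them, and 1, Lcn2, higher, beside 0.504% and 0.376% of all genes. EdgeR without empty replicate 2 called 3, where it called 0.181% of all genes higher and 0.153% lower. Zc3h12a, which encodes an RNase that degrades cytokine transcripts, was among the 6 called lower by DESeq2. It was at 6.02, 10.6 and 7.28 TPM in the UTOpiA group and 20.7, 59.3 and 31.9 in the empty group (-2.03, edgeR adjusted p = 0.194). Lcn2, which encodes the iron-scavenging lipocalin-2, went the other way, at 6310, 5694 and 5359 TPM in the UTOpiA group and 290, 2523 and 417 in the empty group (2.63, edgeR adjusted p = 0.349, or 4.28 and adjusted p = 0.00484 without empty replicate 2). It was above all empty livers, as 2.43% of all genes were. The 3 genes called without empty replicate 2 were Cxcl1 (-1.93, against -4.72 with all libraries), Sod2 (-2.18, against -1.80) and Lcn2. Zc3h12a, Lcn2, Cxcl1 and Sod2 were chosen for mention here after their values were seen.

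**Figure D5:**
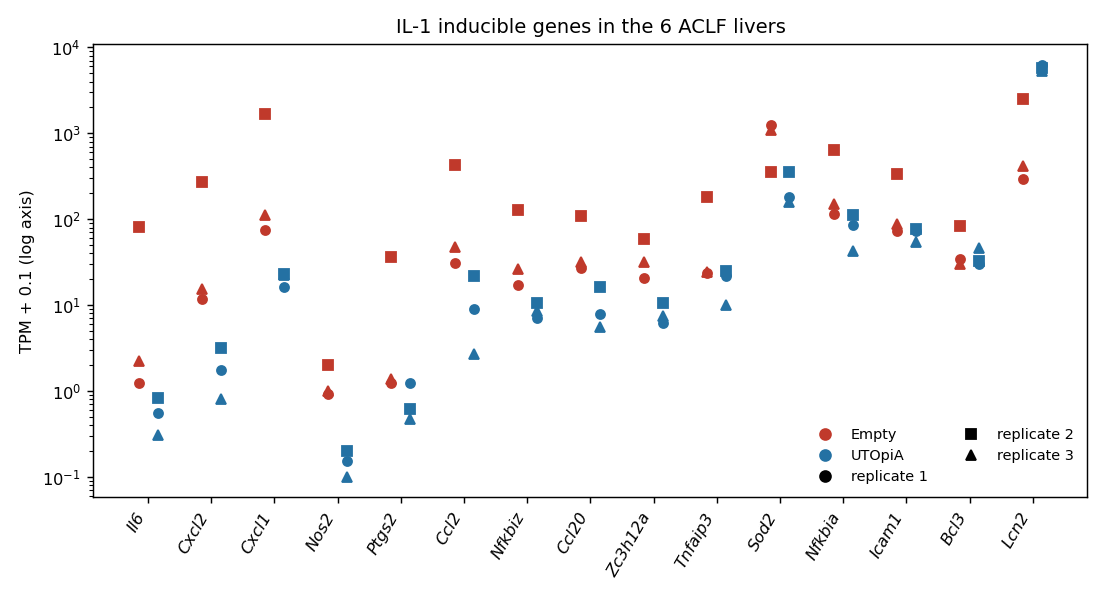
TPM + 0.1 (logarithmic y axis) of the 15 tested IL-1 inducible genes in the 3 empty (red) and 3 UTOpiA (blue) livers, in order of the fold change between the groups; shapes are replicate numbers. UTOpiA livers are below all empty livers for 10 genes and above all of them for Lcn2, and empty replicate 2 is the highest point for most genes.

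Markers of other cell types also differed between the groups. Against normal livers, 20.7% of all genes tested were called higher and 11.1% lower in the empty group. In the UTOpiA group these shares were 18.2% and 6.81%. Neutrophil markers summed to 2.25 to 5.58 TPM in normal livers, 187 to 1108 with the empty circuit and 175 to 507 in the UTOpiA group. Of the 10, 5 were tested, all 5 called higher in both ACLF groups, and Cxcr2, Fpr1, Fpr2, Ltf and Mpo were at 0 in all normal livers, Ltf in every library. Since the 10 together reached no more than 5.58 TPM in a normal liver, the 5 could pass the filter through the ACLF libraries. This favoured a higher call. Within the empty group the neutrophil marker sum was 537, 187 and 1108 TPM in replicates 1 to 3. That was the opposite order to that of Il1a and Il1b, which were highest in replicate 2 and lowest in replicate 3. It was the same order as that of Il1r2, at 14.9, 7.39 and 27.1 TPM. In the UTOpiA group the sum was 388, 507 and 175 TPM, the same order as that of Il1a and Il1b there, but not that of Il1r2. Macrophage and Kupffer cell markers, all 10 detected in every library, summed to 426 to 511, 1240 to 1800 and 701 to 1598 TPM, with 7 and 6 of 10 called higher. Cholangiocyte markers summed to 14.5 to 24.8, 304 to 610 and 128 to 389 TPM, with 6 of 6 called higher in both. Stellate cell and fibroblast markers summed to 105 to 116, 859 to 1058 and 449 to 1049 TPM, with 6 and 7 of 8 called higher. Endothelial markers, by contrast, summed to 83.1 to 90.5, 78.6 to 130 and 78.6 to 91.4 TPM, with 1 of 7 called in each direction, near the shares of all genes. T cell markers summed to 13.7 to 16.7, 61.5 to 97.2 and 32.5 to 98.2 TPM, with 4 and 5 of 7 called higher and Cd3d at 0 in normal livers. B cell markers summed to at most 3.75 TPM, with 0 of 2 tested called, and mast cell markers to at most 10.03 TPM, with 1 of 3 tested called in each direction and Tpsab1 and Tpsb2 at 0 in normal livers. Col1a2, Pecam1 and Timd4 were not found by symbol. Between the UTOpiA and empty groups 0 markers of any list were DEGs. The part of these cell types in the changes of Il1b, Il1rn, Il1r2, Il18bp and the other members was not tested.

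The profiles nearest to those of Il1b and Il1rn were found as the smallest root mean square difference of log2(TPM + 1) over the 9 libraries, each centred on its own mean. Nearest to Il1b were Cxcl3 (0.509), Tifa (0.544) and Ch25h (0.550), beside a median of 1.94 over all genes. Nearest to Il1rn were Inhbb (0.247), Tifa again (0.267) and Slfn2 (0.299), beside a median of 1.54. Tifa was at 1.06 to 1.20 TPM in normal livers, 30.7, 73.9 and 35.6 with the empty circuit and 11.6, 21.4 and 6.68 in the UTOpiA group. Cxcl3, a neutrophil chemokine, was at 0 in all normal livers, 26.4, 57.8 and 27.5 TPM with the empty circuit and 3.09, 12.4 and 1.04 in the UTOpiA group. These likenesses are descriptions over 3 groups and carry no test.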

How the data were processed

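Liver RNA of 9 rats was sequenced, with 3 normal livers, 3 of the empty group and 3 of the UTOpiA group, and libraries were grouped by their labels. The authors aligned the reads with HISAT2, counted them per gene with featureCounts and deposited the counts without normalisation for 32883 genes, with TPM beside them that sum to 1000000 per library. The submitters' processing notes name the rat build rn6, to which the positions are credited, and Trimmomatic, whereas the methods name a mouse build and Cutadapt. The labels name a NEBNext directional kit and the methods an MGIEasy directional kit. Protein sequences were not used here.

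Counts entered edgeR 4.0.16 (R 4.3.3) after filterByExpr, which left 14089 genes, and TMM normalisation. A single fit held the 9 libraries with a mean for each group, and contrasts were tested by the robust quasi-likelihood test, two-sided. Ratios of TPM were compared by two-sided exact permutation tests with a pseudocount of 0.1. Intervals of count ratios are exact, at 95%, and cover counting error only. P-values measure the spread between these livers. Libraries of a group differed by more than sampling noise, with a chi-square per degree of freedom of at least 18.8, so each counted as 1 replicate. The tests were tried on simulated counts. The alternatives were DESeq2 1.42.0, limma 3.58.1 on TPM, median-of-ratios normalisation, other filters, no fold threshold, only the libraries compared, the replicate block and each library left out. Once values had been seen, DESeq2 leaving out 1 ACLF library at a time was added. All 10 members are named, with up to 4 called genes per pathway list and comparison by size of change at a mean of at least 1 TPM, genes at 0 or not tested, and the 3 nearest profiles of Il1b and Il1rn. The members, lists and tests were chosen with earlier results of these data known. Promoter sequences came from RefSeq, assembly GRCr8.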

Additional observations from a re-analysis of the deposited data

How the results depend on the processing

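Of the 10 members, 7 to 10 were DEGs in the empty group and 5 to 8 in the UTOpiA group, both against normal livers, over 25 alternatives, and these were also the ranges with each library left out in turn. Between the UTOpiA and empty groups the count was 0 in the main analysis, 1 with DESeq2, and 0 to 1 with each library left out, the gene being Il1rn without empty replicate 2 or UTOpiA replicate 2. DESeq2 without empty replicate 1, 2 or 3 called 1, 1 and 3 members, all lower, beside 0.708%, 0.986% and 0.504% of all genes called lower, and without UTOpiA replicate 1, 2 or 3 it called 1, 4 and 1, beside 0.180%, 2.45% and 0.380%. The 4 without UTOpiA replicate 2 were Il1b (-2.99), Il1r2 (-2.17), Il1rn (-1.74) and Il33 (1.13), where 1.59% of all genes were called higher and 2.45% lower. The 3 without empty replicate 3 were Il1a (-3.07), Il1b (-2.61) and Il1rn (-1.68). The cause was not tested.

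Il1a in the empty group against normal livers reversed with limma on log2(TPM + 1) (-0.50, also at a mean of at least 1 TPM), on log2(TPM + 0.1) (-0.71) and in DESeq2 without empty replicate 2 (-2.30), and ranged from -2.32 to 0.63 with each library left out. Without normal replicate 1 it was -0.04. Il1r1 between the ACLF groups was 0.13 without empty replicate 2 and 0.11 with DESeq2 without that library, and ranged from -0.34 to 0.13 with each library left out. The ratio of Il1rn to Il1a plus Il1b reversed when set against Il1b alone, to -0.93 and -0.38 in the empty and UTOpiA groups against normal livers, by leaving Il1a out. With each library left out that ratio ranged from 0.97 to 2.15 and 1.51 to 2.45 in these comparisons, and from -0.11 to 1.07 between the ACLF groups, where it was -0.05 without UTOpiA replicate 3 and -0.11 without empty replicate 2. The other ratios kept their direction, but that of Il1r2 to Il1r1 with 1 TPM added was 1.29 and 0.083 in the empty and UTOpiA groups against normal livers.

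With the replicate number as a block, the counts of members called were 8, 7 and 0, and Il1a was at -0.91 in the empty group against normal livers. The numbers did not pair the livers, since deviations of same-numbered livers correlated at -0.183 to 0.064.

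Among the pathway lists, called genes in the empty group ranged over the alternatives from 0 to 4 (other family members), 2 to 9 (signalling), 6 to 11 (processing) and 8 to 15 (inducible genes), and in the UTOpiA group against normal livers from 0 to 2, 1 to 8, 4 to 10 and 4 to 12. Between the ACLF groups the inducible genes called ranged from 0 to 12 and those of the other lists from 0 to 1. Il1r2 and Il1rl1 were the members limited by depth, with at most 5 counts in a normal library.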
